A study of Xenopus laevis with 4 samples.

Results

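The genes described here are the endoderm regulators gata5, foxa1, hnf4a and hhex of the clawed frog *Xenopus laevis*, measured in dorsal and ventral pancreatic buds. They were taken as every probe set of the array whose only gene symbol in the platform annotation was gata5.L, gata5.S, foxa1.S, hnf4a.S or hhex.L. This gave 6 probe sets of 5 genes, among 15491 probe sets that are not controls and 7531 genes with a symbol of their own. The suffixes .L and .S mark the copies of a gene on the long and short chromosomes of this allotetraploid frog, called homeologues, and a probe designed for either copy may catch RNA of both. There were 2 dorsal and 2 ventral samples, each a pool of 1000 to 3000 buds with 1 to 5 ng of total RNA. All buds came from tadpoles raised in diluted MMR salt solution and anaesthetised in MS-222, were dissected before the buds fused, and had no further treatment in the labels, which give neither a strain nor a stage. Each pool was hybridised to 1 Affymetrix array, and the labels leave unsaid whether pools of a kind had separate sources, so the spread behind the p-values may be technical only.

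All of the regulators are transcription factors that act early in the gut tube. GATA5 is a zinc finger factor which in *Xenopus* takes part in endoderm formation and is also found in heart and gut. FOXA1 is a winged helix factor that binds its sites in closed chromatin, so that liver and pancreas enhancers become open to other factors. HNF4A is a nuclear receptor family member that maintains the gene expression of hepatocytes and intestinal epithelium, and HHEX is a homeodomain factor of the ventral foregut that in mouse is needed for the liver and ventral pancreas. The dorsal pancreas grows out beside the notochord and aorta, whereas the ventral pancreas shares its origin with the liver and bile duct.

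The 4 arrays had been scaled before deposit to a mean intensity of 100 each, with medians from 21.8 to 24.2. Replicates lay closer together in ventral than in dorsal buds: the SD of the log2 difference between replicate arrays, across 9294 tested probe sets, was 0.48 in the dorsal and 0.29 in the ventral pair. Pearson's r across those probe sets, which are not independent replicates, was 0.949 within dorsal buds and 0.981 within ventral buds, and dorsal replicate 1 stood closer to ventral replicate 1 (r = 0.962) than to the other dorsal array. A probe set for the added *Bacillus* transcript lys ranged from 22.9 in dorsal replicate 2 to 80.1 in ventral replicate 2. The ratio of control probe sets at the end and the start of the Gapd transcript was 9.69 and 5.53 in dorsal replicates 1 and 2. In the ventral arrays it was 7.52 and 7.55. The same ratio for actin was 0.217 and 0.095 in dorsal, against 0.153 and 0.144 in ventral arrays. Whether RNA quality bears on the dorsal spread was not tested. As a guide to dimness, the highest of 17 empty control probe sets on any array was 21.5, in ventral replicate 1; on the dorsal arrays the highest were 11.7 and 12.6, and on ventral replicate 2 it was 9.37. Precision is limited throughout by the number of arrays. Of 14 pancreas markers tested, 12 had a log2 difference above 0 and 2 below 0, while 4243 of all 9294 tested probe sets lay below 0. Some of these markers, such as chga.L and neurod1.L, were dim in ventral buds. The filter on dim probe sets, which takes the mean over all arrays, kept them through their dorsal values. Once tested, their difference could only lie above 0. The median of the markers was 0.79, but -0.53 without dorsal replicate 1. The 2 that passed, both higher in dorsal buds, were the insulin genes ins.L, at 1383 and 1235 in dorsal buds, against 32.7 and 26.3 in ventral buds, and ins.S, at 1969.7 and 2670.2 in dorsal buds, against 73.2 and 41.8 in ventral buds. A marker that was bright in both kinds of bud, pdia2.L, a protein disulfide isomerase gene of early pancreas, had intensities of 2483 and 977 in dorsal buds, against 1930.0 and 1039 in ventral buds.

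Every one of the 6 probe sets had a lower mean intensity in dorsal than in ventral buds, and in 5 of them both dorsal arrays lay below both ventral arrays. The exception was the dim second probe set of hnf4a.S. Such an order of the arrays was seen in 19.3% of all probe sets that are not controls. No regulator passed an adjusted p of 0.05 in limma over the 9294 probe sets tested, where 0.258% of probe sets passed. Of the 6 probe sets, 4 were bright enough to be tested, while hhex.L and the second probe set of hnf4a.S were removed by the filter on dim probe sets. In a fit with no filter, 5 of the 6 had an unadjusted p under 0.05 on the ventral side, against 5.02% of all probe sets, and 0 passed after adjustment, against 0.129%. The regulators were chosen with earlier results of these data known, so none of these shares tests them as a set.

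**Figure D1:**
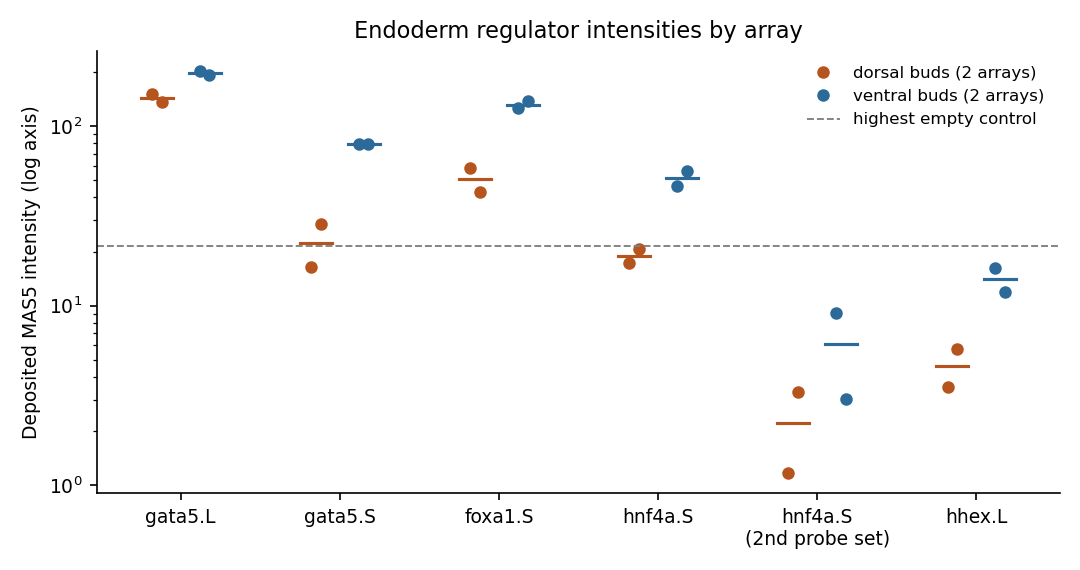
Deposited MAS5 intensity (log axis) of each regulator probe set in dorsal buds (left, 2 arrays) and ventral buds (right, 2 arrays); dots are arrays, bars are group means, and the dashed line is the highest empty control (21.5). Dorsal dots lie below ventral dots for every probe set except the second one of hnf4a.S, and both dim probe sets on the right lie under the dashed line in all arrays.

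The GATA factor gata5 was represented by a probe set for each homeologue. Intensities of gata5.S were 16.4 and 28.3 in dorsal buds, against 79.0 and 79.8 in ventral buds. The dorsal arrays were thus both low and spread, with dorsal replicate 1 below 21.5, and the ventral arrays nearly equal. Means were 22.3 ± 8.39 in dorsal and 79.4 ± 0.561 in ventral buds (SD, n = 2 each), and the log2 difference, dorsal minus ventral, was -1.62 ± 0.25 (SE, limma adjusted p = 0.0817). This was a fitted level of 0.325 times the ventral one on the log2(intensity + 6) scale, which understates differences of dim genes. Only 50 of the 9294 tested probe sets had a log2 difference further to the ventral side.

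The other homeologue, gata5.L, stood at 151 and 136 in dorsal buds, against 202 and 191 in ventral buds. Its arrays did not overlap either, but the distance between the groups was small, at a log2 difference of -0.44 ± 0.17 (SE, limma adjusted p = 0.543), or 0.737 times the ventral level. The replicates of gata5.L differed by 0.15 in dorsal and 0.08 in ventral buds on the log2 scale. Those of gata5.S differed by 0.61 in dorsal and 0.01 in ventral buds. The dorsal-ventral difference of gata5.S exceeded that of gata5.L by -1.18 (log2), and the 4 values of gata5.S minus gata5.L did not overlap between dorsal and ventral arrays. An exact two-sided permutation test of this shift gave p = 0.333, the smallest value that 2 arrays against 2 allow. Whether the 2 probe sets tell the copies apart was not tested.

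The FOXA factor gene foxa1.S had intensities of 58.1 and 42.7 in dorsal buds, against 126 and 137 in ventral buds. Each ventral array was well above each dorsal one, with ventral-to-dorsal ratios from 2.17 to 3.21 over the 4 array pairs. The log2 difference was -1.30 ± 0.21 (SE, limma adjusted p = 0.0898), a level in dorsal buds of 0.406 times the ventral one. Of all regulators measured here, foxa1.S was the one with every array above the highest empty control and a difference beyond 1 log2 unit. In 94 tested probe sets the difference lay further to the ventral side. On the log2(intensity + 6) scale, foxa1.S and gata5.S were the 2 of the 6 probe sets at least 2-fold lower in dorsal buds in all 4 array pairs, as were 0.764% of the tested probe sets. This split came from the added 6. On the deposited intensities the smallest ventral-to-dorsal ratio was also above 2 for the brighter probe set of hnf4a.S (2.24) and the dim hhex.L (2.09).

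The nuclear receptor gene hnf4a.S had 2 probe sets. The brighter one stood at 17.2 and 20.7 in dorsal buds, against 46.3 and 55.8 in ventral buds. Both dorsal values lay above the highest empty control of their own arrays but below that of ventral replicate 1, 21.5, and the size of the difference, -1.19 ± 0.22 (SE, limma adjusted p = 0.11), depends on the pseudocount: it was -0.80 with a pseudocount of 24. The second probe set was at 1.17 and 3.30 in dorsal buds, against 9.14 and 3.03 in ventral buds. These values overlapped and all lay in the range of the empty controls, so this probe set gave no measured level to set beside the first.

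The ventral foregut gene hhex.L was dim in every array, at 3.53 and 5.72 in dorsal buds and 16.2 and 11.9 in ventral buds. The groups did not overlap, yet all 4 values lay below the highest empty control of any array, 21.5. The value in ventral replicate 2 lay above the highest empty control of its own array, 9.37. On each other array hhex.L lay below that array's highest empty control. The log2 difference was -0.92, with an adjusted p of 0.41 in the limma fit with no filter, and it was -0.41 with a pseudocount of 24 and -1.43 with a pseudocount of 1. Detection calls are not given in the sources used here, so whether hhex.L was detected is unknown.

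Leaving out 1 array moved the calls, while the direction of genes without overlap could not change. Without dorsal replicate 1, the limma adjusted p was 0.000963 for gata5.S, 0.00018 for foxa1.S and 0.0075 for hnf4a.S. Without dorsal replicate 2 it was 0.000272 for gata5.S, 0.00832 for foxa1.S and 0.00965 for hnf4a.S. All 3 genes therefore passed in both of these fits, in which the spread comes from the closer ventral pair and the lone dorsal array is taken to vary like it; 899 and 277 of all tested probe sets passed there. Without ventral replicate 1 the values were 0.627, 0.699 and 0.702 for gata5.S, foxa1.S and hnf4a.S, and without ventral replicate 2 all 3 stood at 1.0. The log2 difference itself ran from -1.93 to -1.32 for gata5.S, from -1.50 to -1.10 for foxa1.S and from -1.31 to -1.07 for hnf4a.S. In these pools, fewer cells that express a regulator and less of its RNA per cell cannot be told apart.

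**Figure D2:**
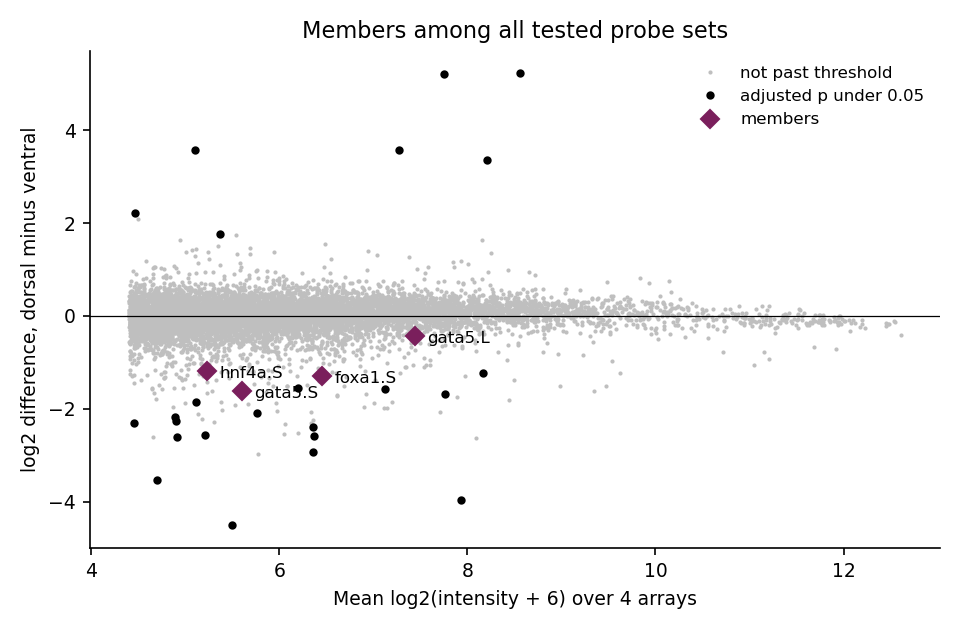
Log2 difference, dorsal minus ventral, against mean log2(intensity + 6) over the 4 arrays for the 9294 tested probe sets; black dots have an adjusted p under 0.05 and diamonds are the tested regulators. The diamonds of gata5.S, foxa1.S and hnf4a.S lie at -1.62, -1.30 and -1.19, below the bulk of probe sets, and that of gata5.L lies at -0.44.

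Other members of the same families lay on both sides of 0. The annotation gave 13 further probe sets of GATA, FOXA, HNF4 and PROX genes, of which 6 were tested and 0 passed in limma; 1 had an unadjusted p under 0.05. The endoderm factors gata4 and gata6, which act beside GATA5 in gut and heart, had log2 differences from -0.08 to 0.25. Intensities of gata6.L were 682 and 817 in dorsal buds, against 652 and 599 in ventral buds. Both dorsal values lay above both ventral ones, with a log2 difference at 0.25 ± 0.15 (SE, limma adjusted p = 0.699). Intensities of gata4.L were 557 and 288 in dorsal buds, against 448 and 402 in ventral buds, overlapping. Its log2 difference was -0.08 ± 0.29 (SE, limma adjusted p = 0.96), and ran from -0.55 to 0.39 with 1 array left out. The dimmer homeologues gata4.S and gata6.S were at 0.22 and 0.13 on the same scale, and only gata6.S overlapped between the groups. Whether gata5.S differs from gata4 or gata6 in its shift was not tested.

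Of the remaining relatives, gata1.L, the red blood cell GATA factor, was on the ventral side at -0.55 (limma adjusted p = 0.553), with 21.0 and 18.6 in dorsal buds, against 28.4 and 35.4 in ventral buds. The homeodomain factor gene prox1.L, which acts in liver and pancreas, was on the dorsal side, at 105 and 144 in dorsal buds, against 89.2 and 81.0 in ventral buds (log2 difference 0.50, limma adjusted p = 0.584). Values of foxa4.L, foxa4.S, gata1.S, gata2.L, gata3.S and hnf4b.S were too dim to be tested, with a highest value of 20.5 among them. Like hhex.L, foxa4.S did not overlap, but it lay on the dorsal side. It was at 7.24 and 9.53 in dorsal buds, against 2.95 and 0.73 in ventral buds. Its log2 difference was 0.89 (limma with no filter, unadjusted p = 0.0123, adjusted p = 0.419). On the ventral side without overlap lay gata1.S at -0.58, hnf4b.S at -0.53 and a probe set of gata2.L at -0.17. The homeologues foxa1.L and hhex.S, and the gene foxa2, were not analysed here.

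**Figure D3:**
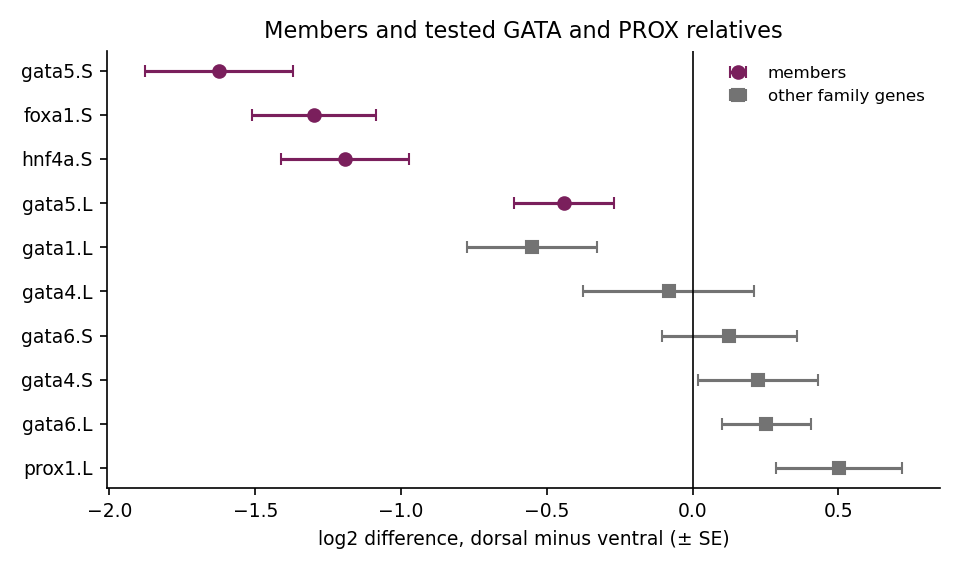
Log2 difference, dorsal minus ventral, with the moderated standard error for the 4 tested regulator probe sets (circles, top) and 6 tested relatives (squares). Regulators run from -1.62 to -0.44, and relatives from -0.55 for gata1.L to 0.50 for prox1.L.

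Within a wider list of endoderm, foregut and pancreas genes, mostly transcription factors, gata5.S, foxa1.S and hnf4a.S were the far ventral end of the tested genes. Of 45 listed genes on the array, 23 were tested, 0 passed in limma over all probe sets, and 9 had an unadjusted p under 0.05, 7 of them ventral and 2 dorsal. Over all tested probe sets, such a p was reached by 8.62%, and on the ventral side by 5.21%. Of the 9, 4 were the regulators themselves, chosen with earlier results known, and the 19 other genes held 5, 3 of them ventral and 2 dorsal. Among these ventral genes was gata1.L, the red blood cell factor, which is also counted in the list of blood markers. The median log2 difference was -0.14 over the 23 genes and 0.13 over the 19 that were left when the regulators were set aside, beside 0.03 over all tested probe sets. After gata5.S, foxa1.S and hnf4a.S, the next on the ventral side was the orphan nuclear receptor gene nr2f2.L, at 103 and 173 in dorsal buds, against 247 and 281 in ventral buds (log2 difference -0.95, limma adjusted p = 0.295). On the dorsal side stood the motor neuron and pancreas homeobox gene mnx1.S, at 33.5 and 38.8 in dorsal buds, against 21.1 and 11.7 in ventral buds (0.94, limma adjusted p = 0.333), and the nuclear receptor gene nr5a2.L, at 94.8 and 156 in dorsal buds, against 74.7 and 50.2 in ventral buds (0.92, limma adjusted p = 0.411). None of the 3 overlapped between the groups, but they were named for the size of their differences. Both dorsal arrays lay below both ventral arrays in 19.3% of all probe sets that are not controls. The share with the opposite order was not counted. The homeologue nr5a2.S, named after its values were seen, overlapped and lay on the ventral side at -0.63, with 280.0 and 116 in dorsal buds, against 337 and 237 in ventral buds. Without dorsal replicate 1 the count of listed genes that passed was 10, and without dorsal replicate 2 it was 5.

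Genes that HNF4A, FOXA or other liver factors are known to regulate in the liver of mammals were in part lower in dorsal buds. Of 39 listed genes on the array, 31 were tested. In limma over all probe sets 6 passed, all lower in dorsal buds, against 0.183% of all tested probe sets. With no filter on dim probe sets 4 of the 39 passed, against 0.129% of all probe sets. A log2 difference below 0 was seen in 25 of the 31, beside 4243 of all 9294 tested probe sets. The median was -0.58, beside 0.03 over all tested probe sets. The list was chosen with earlier results of these data known, so its counts and median are no test of these genes as a set. The clotting factor gene f9.S, a known HNF4A target in mammals, was at 8.12 and 7.19 in dorsal buds, against 54.6 and 65.4 in ventral buds (-2.27, limma adjusted p = 0.0133). The anticoagulant protein C gene proc.S was at 10.9 and 13.8 in dorsal buds, against 66.3 and 54.2 in ventral buds (-1.85, limma adjusted p = 0.0333). The others that passed were itih2.S at -3.97, akr1d1.L at -2.62, f12.L at -2.30 and agxt.L at -1.23. The pseudocount sets the size for the dim ones: both dorsal values of f9.S, akr1d1.L and f12.L lay below the highest empty control of their own array. These genes and proc.S passed the filter, which takes the mean over all arrays, through their ventral values, so only a ventral call was open to them. With a pseudocount of 24 the differences of f9.S, akr1d1.L and f12.L were -1.41, -1.62 and -1.25. That of proc.S was -1.21, and all 6 genes still passed in limma. The count rested on single arrays: it was 17 without dorsal replicate 1, 16 without dorsal replicate 2, and 1 without either ventral replicate.

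Not all of the listed liver genes were lower in dorsal buds. The apolipoprotein gene apob.S, whose product carries lipids in plasma, was at 229 and 589.7 in dorsal buds, against 200.4 and 300.1 in ventral buds, which overlap. Its log2 difference was 0.58 (limma adjusted p = 0.753), and ran from -0.09 to 1.24 with 1 array left out. The apolipoprotein gene apoa1.S also overlapped between the groups, with 193 and 675 in dorsal buds, against 408 and 354 in ventral buds (-0.07, limma adjusted p = 0.979). Both had more signal in dorsal replicate 2 than in dorsal replicate 1. In dorsal replicate 2, foxa1.S had its lower dorsal value and gata5.S and hnf4a.S their higher one.

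Summed markers of several other tissues were, like the regulators, lower in both dorsal arrays. The summed intensity of 18 hepatocyte markers was 2721 and 4824 in dorsal buds, against 5550 and 5529 in ventral buds. This order rested on itih2.S, at 47.6 and 64.8 in dorsal buds, against 1033 and 886 in ventral buds. Without itih2.S the sum of dorsal replicate 2 lay above both ventral sums. Of the 17 hepatocyte markers tested, 15 had a log2 difference below 0. All 18 also belong to the liver target list, so the lists are not separate evidence. The sum of 7 bile duct markers was 1007 and 1089 in dorsal buds, against 1948 and 2054 in ventral buds, with 5 of 6 tested below 0. Only krt7.L and krt19.L, keratin genes named after their values were seen, had an unadjusted limma p under 0.05. The order of the sums came from krt7.L and krt19.L, and without them the sums overlapped between the groups. Blood markers summed to 6931 and 4518 in dorsal buds, against 8254 and 11029 in ventral buds, with 8 of 8 tested below 0. Skeletal muscle markers summed to 409 and 329 in dorsal buds, against 737 and 996 in ventral buds, with 8 of 9 tested below 0. Smooth muscle and mesenchyme markers summed to 411 and 447 in dorsal buds, against 547 and 962 in ventral buds, with 5 of 5 tested below 0. No marker was listed at 0 in any of these lists, and the albumin gene alb was not analysed here. The part of these tissues in the values of the regulators was not tested. In the hepatocyte and skeletal muscle counts, some genes, such as f9.S, fgb.L and tnnc2.L, were kept by the filter through their ventral values. Once tested, their difference could only lie below 0, so the counts of these lists are no test of direction.

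Markers of heart, endothelium and thyroid gave no such order. The heart, a site of gata5 expression, was nearly unmeasured: 11 of 14 heart marker genes stayed at or below the highest empty control in all arrays, and the sums were 84.5 and 104 in dorsal buds, against 149 and 77.2 in ventral buds, which overlap. The endothelium, a site of hhex expression, had marker sums of 191 and 173 in dorsal buds, against 151 and 170.4 in ventral buds, both dorsal sums lying above both ventral ones, with 2 of 4 tested genes below 0. The thyroid markers nkx2-1.L and pax8.L were both in the range of the empty controls. Gut epithelium markers summed to 874 and 1422 in dorsal buds, against 327 and 355 in ventral buds, and this order came from darmin.L, a peptidase gene of the frog gut that was higher in dorsal buds by 3.35 (limma adjusted p = 0.0047). Without it the sums were 138 and 228 in dorsal buds, against 250.1 and 258 in ventral buds, and 5 of the 6 other genes tested lay below 0, with a median of -0.71. Among those below 0, sult1c1.L and lgals4.2.L were kept by the filter through their ventral values, so their direction was fixed.

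**Figure D4:**
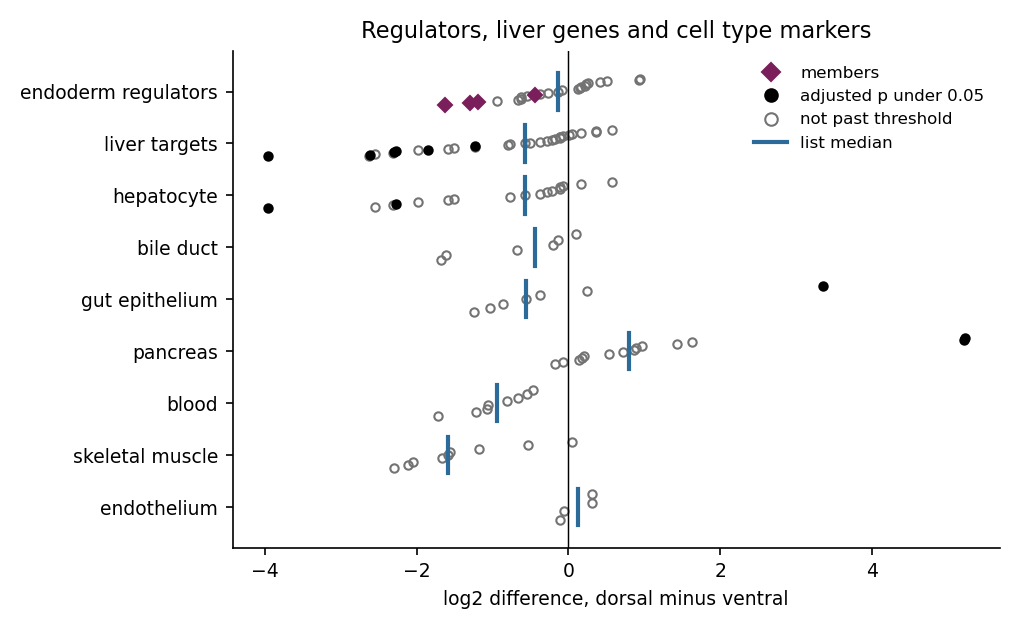
Log2 differences, dorsal minus ventral, of the tested genes of 9 lists, 1 point a gene; diamonds are the regulators, filled dots have an adjusted p under 0.05, and the vertical bars are list medians. Medians are -0.14 for endoderm regulators and -0.58 for liver target genes, against 0.79 for pancreas markers.

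The genes whose pattern over the 4 arrays was nearest to each regulator were found by the Euclidean distance between log2 values centred on their own mean, among 5197 tested genes. For gata5.S these were krt19.L, a keratin gene of simple epithelia (distance 0.16, against a median of 1.76 over all genes), fgb.L, the fibrinogen beta chain gene (0.19), and stard10.L, a lipid transfer protein gene (0.19). The intensities of krt19.L were 275 and 489 in dorsal buds, against 1094 and 1179 in ventral buds, which, as for gata5.S, placed dorsal replicate 1 lowest. For foxa1.S they were degs3.L (0.05), the LIM domain gene crip1.L (0.10) and cyba.L, a subunit gene of the phagocyte oxidase (0.15). The intensities of crip1.L were 71.7 and 50.4 in dorsal buds, against 158.3 and 158.3 in ventral buds, which placed dorsal replicate 2 lowest, as for foxa1.S.

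For the brighter probe set of hnf4a.S the nearest were the galectin gene lgals9b.L (0.15), the keratin gene krt12.4.S (0.15) and the gut galectin gene lgals4.2.L (0.16). The intensities of lgals4.2.L were 10.8 and 16.2 in dorsal buds, against 35.5 and 44.8 in ventral buds. For gata5.L they were ptpn4.S (0.06), bard1.L (0.07) and b4galt3.S (0.08), for hhex.L they were elf1.L (0.12), LOC398368 (0.18) and the prothrombin gene f2.S (0.18), and for the second probe set of hnf4a.S they were tgm2.S (0.08), fahd2a.L (0.17) and septin7.L (0.21). With only 4 arrays many genes can lie this near, and the distances are a description. Among the regulators themselves, foxa1.S and hnf4a.S were the nearest pair (0.45), and gata5.S and gata5.L the farthest (1.30).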

How the data were processed

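Total RNA of 4 bud pools was labelled from oligo(dT)-primed cDNA by in vitro transcription and hybridised, 1 pool an array, per the labels' protocols. The authors deposited linear intensities per probe set, made with MAS5 (no version) per the submitters' processing notes; scaling target, background settings and detection calls are not given in the sources used here. Of 15611 probe sets, 120 controls were left out. The annotation gave 9304 of the rest 1 symbol, 195 several and 5992 none. Symbols were updated by gene identifier through a RefSeq table of *Xenopus laevis* v10.1 (9227 matched, 2 changed, none of a regulator). The files name no genome build, so no positions are given.

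Values were put on the log2(intensity + 6) scale, 6 being their 20th percentile. Those probe sets whose mean log2 exceeded its 40th percentile went into limma 3.58.1 under R 4.3.3 (lmFit, eBayes with intensity trend, Benjamini-Hochberg over all 9294), dorsal minus ventral, with no covariate. The procedure was checked on simulated arrays, with differences larger than those of the regulators and the same spread in dorsal and ventral arrays. The check therefore does not cover differences of the regulators' size or the wider dorsal spread. Lists took 1 probe set a gene, the brightest. Members and lists were chosen with earlier results of these data known. Named genes were every regulator and family probe set, genes of the endoderm regulator and liver target lists past the threshold or, where none passed, the 6 with the largest differences, and the 3 nearest patterns a regulator; ins.L, ins.S, pdia2.L, darmin.L, krt7.L, nr5a2.S, apob.S and apoa1.S were chosen after their values were seen.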

Additional observations from a re-analysis of the deposited data

How the results depend on the processing

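All 72 log2 differences of the 6 regulator probe sets under 12 alternatives were below 0. Outside the fits that leave out 1 array, adjusted p ran from 0.0315 to 0.148 for gata5.S, 0.0509 to 0.148 for foxa1.S, 0.0704 to 0.188 for hnf4a.S and 0.445 to 0.633 for gata5.L. The value of 0.0315 for gata5.S (log2 difference -1.62) was that with the replicate number as a block, where 67 of all probe sets, 1 regulator probe set, 1 endoderm regulator and 10 cell type markers passed, against 24, 0, 0 and 5 without it. The labels do not say whether arrays with the same number belong together. Deviations of same-numbered arrays correlated at r = 0.05, but 2 pairs cannot decide whether they do. The block was kept as an alternative only. With the filter at the 60th percentile, 13 probe sets and 1 liver target gene passed, against 24 and 6, among fewer genes tested (hnf4a.S was not among them). Dim values followed the pseudocount: with a pseudocount of 1 hhex.L was at -1.43 and the second probe set of hnf4a.S at -1.06, and with 24 hhex.L was at -0.41.

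Leaving out each array in turn gave from 4 to 899 probe sets past the threshold, 0 to 3 regulators, 0 to 10 endoderm regulators, 1 to 17 liver target genes and 3 to 33 cell type markers. Log2 differences ran from -1.93 to -1.32 for gata5.S, -1.50 to -1.10 for foxa1.S and -1.31 to -1.07 for hnf4a.S, the gata5.S minus gata5.L shift from -1.56 to -0.80, and the liver target median from -0.97 to -0.35. The pancreas marker median of 0.79 was -0.53 without dorsal replicate 1, the heart median rested on 1 tested gene, and the gut epithelium median of -0.56 was -0.71 without darmin.L, an alternative chosen after seeing the data. Signal near the empty controls limits hhex.L, and in dorsal buds hnf4a.S and gata5.S, and 2 arrays a group limit all tests.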
